A study of Mus musculus with 2 samples.

Results

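IGFBP5 and CTGF, 2 of the 9330 genes counted, were followed through the nuclei of the right atria of adult control mice and of adult mice heterozygous for the Tbx5 variant G125R (Tbx5 G125R/+). Tbx5 is a T-box transcription factor of the atria, and the variant was placed in the mouse gene by CRISPR-Cas9 editing to model an atypical form of Holt-Oram syndrome with early atrial fibrillation. Nuclei were stained with DAPI, sorted and sequenced in droplets. Each genotype gave 1 library, made from a pool of 3 right atria, and single animals within a pool cannot be told apart. The control library holds 3475 nuclei and the Tbx5 G125R/+ library 2933. The genes were chosen because earlier results of these counts showed them to differ between the libraries in opposite directions in different kinds of nuclei, so those differences are given as a description. With 1 library per genotype there is no test between genotypes, and every interval below is a 95% interval that covers counting error only.

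IGFBP5 is a secreted protein that binds insulin-like growth factors (IGFs) outside the cell. It can hold these factors away from their receptor or present them to it, it is cut by extracellular proteases, and part of it is kept in the matrix. CTGF (connective tissue growth factor, also named CCN2) belongs to the CCN family of matricellular proteins, which tie growth factors, integrins and the matrix together. Its gene is a textbook target of the Hippo pathway through YAP and TEAD and of TGF-beta through SMADs, it responds to mechanical load in heart muscle, and it is widely used as a marker of fibrosis.

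The files name genes by human symbol and human Ensembl identifier, ENSG00000115461 for IGFBP5 and ENSG00000118523 for CTGF. The mouse gene Igfbp5 lies on the minus strand of chromosome 1 (72857932 to 72874884 in GRCm38, which is mm10), spans 16953 bases and has 4 exons. Ccn2, the mouse gene for CTGF, lies on the plus strand of chromosome 10 (24595442 to 24598683), spans 3242 bases and has 5 exons. The values are those listed for the human identifier, and how mouse reads were assigned to it is not stated.

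Nuclei were grouped by marker counts, since the genes' values were to be compared within kinds of cells. Nuclei with at least 4 counts of TTN, which encodes the sarcomere protein titin, are called titin-rich (438 control and 438 Tbx5 G125R/+ nuclei). Of the others, nuclei with at least 2 counts of COL1A1, COL3A1 and FBLN1 together, genes of matrix proteins made by fibroblasts, are called collagen-marker nuclei (486 and 285). Of those left, nuclei with at least 1 count of FLT1, PTPRB, TEK or ERG, genes of the vessel lining, are called endothelial-marker nuclei (268 and 222), and the remaining nuclei number 2283 and 1988. Each nucleus is shallow, with medians of 118 genes in control and 108 in Tbx5 G125R/+. Titin-rich nuclei are the deepest (median 259 and 238 counts) and remaining nuclei the shallowest (122 and 111 counts), so that the minimums admit deep nuclei more readily. Levels are therefore given per 10000 counts of all genes in the group.

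Markers that the grouping did not use were checked. Cardiomyocyte markers (8 genes, MYH6 and RYR2 among them) were at 387 per 10000 in control and 358 in Tbx5 G125R/+ titin-rich nuclei. Fibroblast markers, of which ABCA8 and DPT had no listed count, were at 34.8 and 36.6 in collagen-marker nuclei and at 16.2 or less elsewhere. The name of the endothelial-marker group was not borne out by other vessel genes: PECAM1, CDH5 and EMCN had no listed count, and the remaining endothelial check markers had 5 control counts and 1 Tbx5 G125R/+ count in it. The endocardial markers NPR3, NRG1 and HMCN1 were together highest there, at 45.7 and 42.0 per 10000. HMCN1 supplied most of this, with 177 of 200 control and 122 of 136 Tbx5 G125R/+ counts. NRG1 had 0 control counts in this group. The group is therefore called by its rule, of which TEK, the angiopoietin receptor gene, supplied 237 of the control and 171 of the Tbx5 G125R/+ counts. Cardiomyocyte markers were also found outside titin-rich nuclei, at 99.9 and 75.8 per 10000 in collagen-marker nuclei at 93.2 and 58.0 in endothelial-marker nuclei and at 109.7 and 108.2 in remaining nuclei, and the part of free RNA or of joined nuclei in the values below was not tested.

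The tables also carry a cluster label for each nucleus. These labels went against the markers: in the control library TTN lay between 71.8 and 103.8 per 10000 in all 6 clusters with a deposited name, and titin-rich nuclei made up 13.8% of nuclei labelled CMC 1 (cardiomyocytes) and 12.6% of nuclei labelled fibroblast. The labels were therefore not used to group nuclei.

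IGFBP5 was found in every group and was lower in the Tbx5 G125R/+ library in titin-rich and endothelial-marker nuclei. Over all nuclei it had 340 control counts (6.07 per 10000) and 186 Tbx5 G125R/+ counts (4.40), a log2 ratio of Tbx5 G125R/+ to control of -0.46 (-0.73 to -0.20). The same total for CTGF was 197 counts (3.52) and 191 (4.52), a log2 ratio of 0.36 (0.07 to 0.66). Both totals combine groups with unlike ratios.

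In titin-rich nuclei IGFBP5 had 48 counts in control, 3.85 per 10000 (2.84 to 5.10), and 20 in Tbx5 G125R/+, 1.80 (1.10 to 2.77). The intervals do not overlap, and the control level was 2.11-fold the Tbx5 G125R/+ level (log2 ratio -1.08, -1.93 to -0.32). More control than Tbx5 G125R/+ titin-rich nuclei also met another marker rule (62 and 33), and without these the log2 ratio was -0.77 on 31 and 18 counts, with an interval that spans zero (-1.72 to 0.09). With TTN at 2% or more of a nucleus's counts in place of the minimum it was -0.58 (-1.49 to 0.27), and with other markers -0.89 (-1.92 to 0.01). Of the genes with at least 20 counts in titin-rich nuclei, 14.4% were lower in Tbx5 G125R/+ by 1.5-fold or more, and 2 of the 633 genes with at least as many counts as IGFBP5 had a lower ratio.

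In endothelial-marker nuclei IGFBP5 had 49 counts in control, 11.2 per 10000 (8.28 to 14.8), and 18 in Tbx5 G125R/+, 5.55 (3.29 to 8.78). The control level was the highest of IGFBP5 in any group of that library, 1.98-fold that in Tbx5 G125R/+, and the intervals of the levels overlapped slightly (log2 ratio -0.99, -1.88 to -0.21). Without nuclei that hold MYH6 the log2 ratio was -0.73, with an interval that spans zero (-1.71 to 0.16). Here 13.6% of genes were lower by 1.5-fold or more, and none of the 210 genes with at least as many counts had a lower ratio.

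In collagen-marker nuclei the level of IGFBP5 was alike in both libraries. It had 78 control counts, 8.79 per 10000 (6.95 to 11.0), and 39 Tbx5 G125R/+ counts, 9.21 (6.55 to 12.6), with a log2 ratio of 0.08 whose interval spans zero (-0.53 to 0.64). In the remaining nuclei it had 165 counts, 5.45 per 10000 (4.65 to 6.34), and 109, 4.60 (3.78 to 5.55), with a log2 ratio of -0.24 (-0.60 to 0.12). The width of the interval in collagen-marker nuclei leaves room for a difference in either direction.

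For CTGF the Tbx5 G125R/+ level was above the control level in titin-rich and endothelial-marker nuclei and below it in collagen-marker nuclei. In titin-rich nuclei it had 46 counts in control, 3.69 per 10000 (2.70 to 4.92), and 70 in Tbx5 G125R/+, 6.29 (4.90 to 7.94). The Tbx5 G125R/+ level was 1.70-fold the control level, with intervals that just met (log2 ratio 0.76, 0.21 to 1.34). In these nuclei 11.4% of genes were higher by 1.5-fold or more, and 8 of the 372 genes with at least as many counts as CTGF had a higher ratio.

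In endothelial-marker nuclei CTGF had 18 counts in control, 4.11 per 10000 (2.44 to 6.50), and 30 in Tbx5 G125R/+, 9.26 (6.25 to 13.2). The ratio was 2.23-fold (log2 ratio 1.16, 0.28 to 2.10), beside 11.5% of genes higher by 1.5-fold or more, and 2 of 325 genes with at least as many counts had a higher ratio. These ranks, and those given for both genes in the other groups, follow from how the genes were chosen. The CTGF value rests on nuclei with a single marker count: it was 0.094 at a minimum of 2 (3 control and 2 Tbx5 G125R/+ counts), and -0.28 on 12 and 6 counts with other markers for all groups, chosen after the data were seen (HMCN1 and NPR3 for this group). In 2 further settings the CTGF interval spans zero. The log2 ratio was 0.97 (-0.11 to 2.15) without nuclei that hold MYH6. At a minimum of 1 collagen-marker count it was 0.93 (-0.06 to 2.00).

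Collagen-marker nuclei had 43 control counts of CTGF, 4.85 per 10000 (3.51 to 6.53), and 6 Tbx5 G125R/+ counts, 1.42 (0.520 to 3.08). The control level was 3.19-fold that in Tbx5 G125R/+ (log2 ratio -1.67, -3.30 to -0.54), beside 13.6% of genes lower by 1.5-fold or more. None of the 578 genes with at least as many counts had a lower ratio, a rank that follows from how CTGF was chosen. This value rests on the marker minimum and on the markers: with 1 collagen-marker count in place of 2 the log2 ratio was -0.07 (72 control and 40 Tbx5 G125R/+ counts), and with other fibroblast markers, chosen after the data were seen, it was 0.24 on 6 and 4 counts. In the remaining nuclei CTGF had 90 counts, 2.97 per 10000 (2.39 to 3.65), and 85, 3.59 (2.87 to 4.44), with a log2 ratio of 0.27 (-0.17 to 0.72). Without nuclei that hold MYH6, an exclusion chosen after the data were seen, it was -0.35 (67 and 42 counts). Neither gene passed 1.5-fold in the remaining nuclei, where 7.82% of genes were higher and 10.6% lower by that much.

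**Figure D1:**
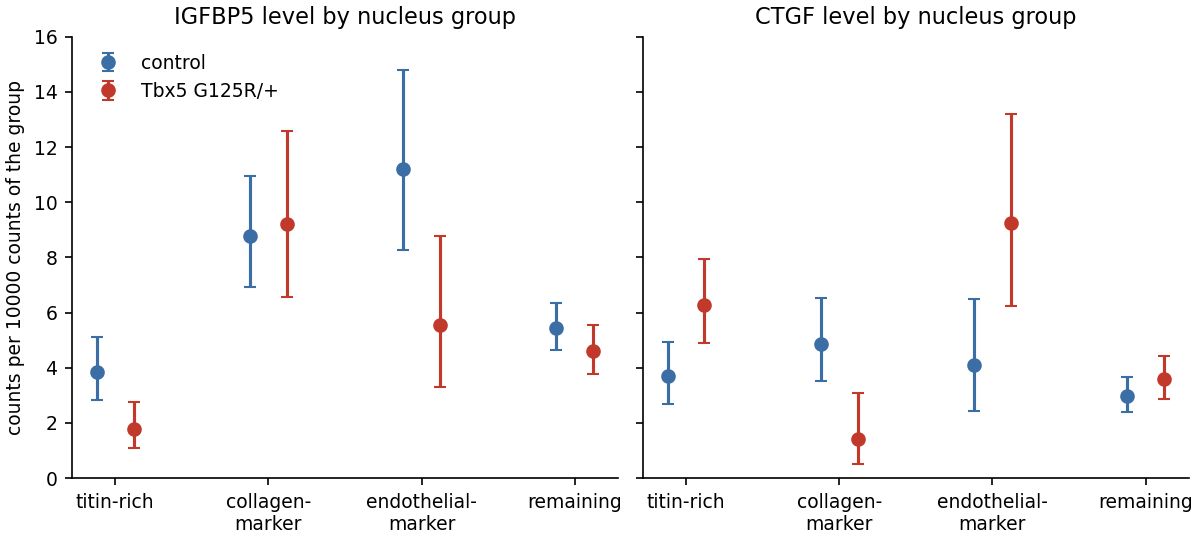
Level of IGFBP5 (left) and CTGF (right) in counts per 10000 counts of each nucleus group, in the control library (blue) and the Tbx5 G125R/+ library (red), with exact Poisson 95% intervals that cover counting error only. IGFBP5 was at 3.85 in control and 1.80 in Tbx5 G125R/+ titin-rich nuclei and at 8.79 and 9.21 in collagen-marker nuclei, whereas CTGF was at 3.69 and 6.29 and at 4.85 and 1.42.

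The order of the levels also differed between the libraries. For IGFBP5 in control it ran from endothelial-marker to collagen-marker, remaining and titin-rich nuclei, with overlapping intervals between neighbours except between collagen-marker and remaining nuclei. In Tbx5 G125R/+ collagen-marker nuclei came first, and only remaining and titin-rich nuclei had neighbouring intervals that did not overlap. CTGF was nearly level in control, from 2.97 in remaining to 4.85 per 10000 in collagen-marker nuclei, and no 2 neighbours in that order differed beyond their intervals. In Tbx5 G125R/+ it spanned 1.42 in collagen-marker to 9.26 in endothelial-marker nuclei, with titin-rich nuclei above remaining ones beyond their intervals.

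**Figure D2:**
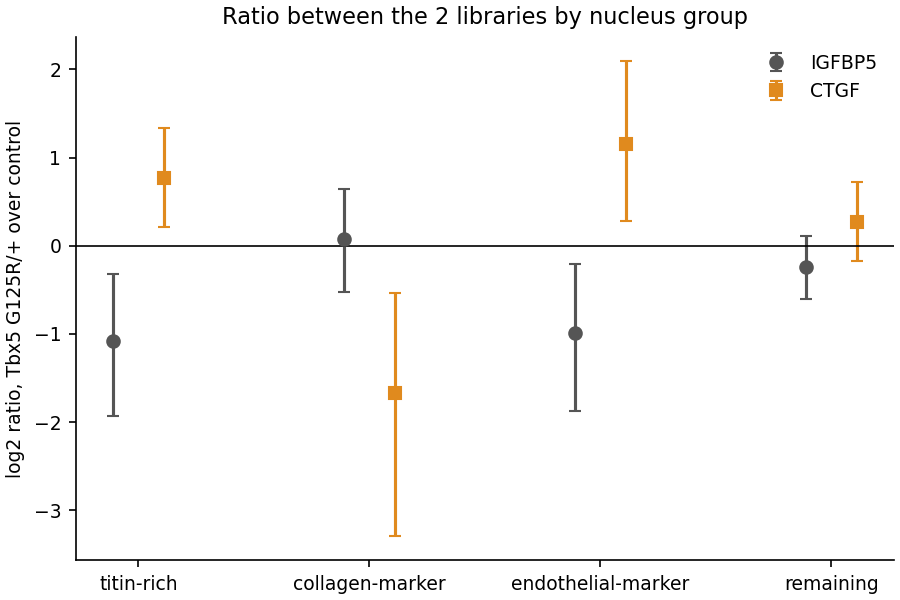
Log2 ratio of the Tbx5 G125R/+ to the control library for IGFBP5 (grey circles) and CTGF (orange squares) in each nucleus group, with exact conditional 95% intervals for counting error. CTGF lies above zero in titin-rich (0.76) and endothelial-marker nuclei (1.16) and below it in collagen-marker nuclei (-1.67), and IGFBP5 lies below zero in the first 2 of these (-1.08 and -0.99).

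The share of nuclei with a count differed between the libraries in the same direction as the level in each marker group, but it also follows depth, so that the deep titin-rich nuclei had larger shares than their levels would place them at. IGFBP5 was seen in 40 of 438 control titin-rich nuclei (9.13%, Clopper-Pearson 6.60 to 12.2) and in 17 of 438 of Tbx5 G125R/+ (3.88%, 2.28 to 6.14). CTGF was seen in 37 (8.45%, 6.02 to 11.5) and 56 (12.8%, 9.80 to 16.3) of the same nuclei. With each nucleus thinned to 80 counts and shallower nuclei left out (2 control and 6 Tbx5 G125R/+ nuclei of this group), the shares were 2.79% and 1.22% for IGFBP5 and 2.55% and 4.52% for CTGF, in the same order.

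In collagen-marker nuclei IGFBP5 was seen in 35 of 486 control nuclei (7.20%, 5.07 to 9.87) and 21 of 285 Tbx5 G125R/+ nuclei (7.37%, 4.62 to 11.0). CTGF was seen there in 33 (6.79%, 4.72 to 9.40) and 6 (2.11%, 0.776 to 4.53). Thinned, the IGFBP5 shares were 3.30% and 4.45% and the CTGF shares 3.37% and 0.885%, where the last stands for an expected 2.37 of 268 nuclei. CTGF was thus near the limit of detection in this group of the Tbx5 G125R/+ library.

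In endothelial-marker nuclei IGFBP5 was seen in 35 of 268 control nuclei (13.1%, 9.27 to 17.7) and 16 of 222 Tbx5 G125R/+ nuclei (7.21%, 4.18 to 11.4), and CTGF in 15 (5.60%, 3.17 to 9.06) and 23 (10.4%, 6.68 to 15.1). Thinned, these were 7.31% and 3.88% for IGFBP5 and 3.31% and 6.62% for CTGF. The shares in remaining nuclei were closer, at 6.04% and 4.18% for IGFBP5 and 3.50% and 3.77% for CTGF. Remaining nuclei with a macrophage marker, a cell type that should lack both genes, showed a count of either gene in 0 of 18 control and 0 of 15 Tbx5 G125R/+ nuclei. That allows shares of up to 16.7% and 20%, at median depths of 137.5 and 140 counts, and so does not set a useful background.

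Counts of IGFBP5 were unevenly spread over collagen-marker nuclei. The 5 highest control nuclei held 46 of the 78 counts (59.0%) and the 5 highest Tbx5 G125R/+ nuclei 23 of 39 (59.0%), with 19 and 11 counts in the highest nucleus of each library. CTGF showed no such nuclei, with at most 4 counts in a nucleus of any group. In titin-rich nuclei IGFBP5 reached 4 counts, and a single count per nucleus made up 35 of the 48 control counts.

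Over both libraries, 11 nuclei had at least 4 IGFBP5 counts, 8 in control and 3 in Tbx5 G125R/+, and 7 of them were collagen-marker nuclei. They were deep, with a median of 507 counts, which favours high counts of any gene. These nuclei, described after their values were seen, also held TIMP2, an inhibitor of matrix metalloproteinases, at 75.8 per 10000 against 7.37 in all other nuclei. GPM6A, a membrane glycoprotein gene found in epicardial cells and neurons, was at 31.3 against 3.36, and CRIM1, a transmembrane protein that binds growth factors, at 24.7 against 3.15. CTGF had 1 count in each of 2 of the 11 nuclei.

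Counts of both genes in the same nucleus were also tallied. Of 6408 nuclei, 385 had IGFBP5, 325 had CTGF and 26 had both, 20 of them in control and 6 in Tbx5 G125R/+. In titin-rich nuclei 5 control nuclei and 1 Tbx5 G125R/+ nucleus had both. At this depth most nuclei that hold a transcript give no count of it, so that these numbers describe counts and not which genes a cell expressed.

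The ratios were followed along the markers without a minimum. Along TTN, CTGF had 126 control and 86 Tbx5 G125R/+ counts in nuclei with no TTN count (log2 ratio -0.05). It was higher in Tbx5 G125R/+ in every bin with TTN, at 0.82 with 1 count, 0.98 with 2 to 3, 0.81 with 4 to 7 and 0.72 with 8 or more. IGFBP5 was at -0.18 in nuclei with no TTN and at -0.67, -1.61, -1.33 and -0.89 in the same bins. Of these 8 ratios in bins with TTN, the intervals that leave out zero are those of CTGF at 8 or more and of IGFBP5 at 2 to 3 and at 4 to 7 counts. Just outside the minimum of 4, nuclei with 3 TTN counts had 11 IGFBP5 and 3 CTGF counts in 60 control nuclei and 1 and 12 in 62 Tbx5 G125R/+ nuclei. Just inside it, nuclei with 4 TTN counts had 9 and 1 in 53 control nuclei and 2 and 3 in 43 Tbx5 G125R/+ nuclei.

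Remaining nuclei had a higher CTGF ratio with 1 to 3 TTN counts than with none, with intervals that overlap. Those with 1 to 3 TTN counts had 16 CTGF counts in control, 3.64 per 10000, and 31 in Tbx5 G125R/+, 7.58 (log2 ratio 1.04, 0.14 to 2.03). Those with none had 74 and 54 counts, 2.86 and 2.76 (-0.05, -0.58 to 0.47). In the endothelial-marker group the 232 control and 200 Tbx5 G125R/+ nuclei with no TTN count held 13 and 27 CTGF counts, 3.62 and 9.45 per 10000 (1.36, 0.38 to 2.46). Its nuclei with 1 to 3 TTN counts held 5 and 3 (0.38, -2.39 to 2.66), too few to tell whether the ratio differs with TTN. In collagen-marker nuclei with no TTN count CTGF had 39 and 5 counts, 5.41 and 1.38 per 10000 (-1.85, -3.67 to -0.63), and IGFBP5 53 and 37, 7.35 and 10.2 (0.48, -0.17 to 1.10). The 58 control and 35 Tbx5 G125R/+ collagen-marker nuclei with 1 to 3 TTN counts had 25 and 2 IGFBP5 counts, 15.0 and 3.32 per 10000 (-1.89, -5.30 to -0.18).

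Along the collagen markers the CTGF ratio changed sign. It was higher in Tbx5 G125R/+ in nuclei with no collagen-marker count (107 control and 139 Tbx5 G125R/+ counts, log2 ratio 0.61) and with 1 (38 and 42 counts, 0.54). It was lower with 2 to 3 (44 and 8 counts, -1.33), and with 4 or more there were 8 and 2 counts (-0.34, -3.85 to 1.75). These bins also hold titin-rich nuclei, so they do not divide the value of the collagen-marker group. The bin of 2 to 3 is the larger, with 442 control and 262 Tbx5 G125R/+ nuclei against 95 and 47 with 4 or more. IGFBP5 was at 5.33, 5.69, 8.51 and 9.62 per 10000 in the bins of 0, 1, 2 to 3 and 4 or more in control, and at 4.03, 3.41, 6.63 and 15.7 in Tbx5 G125R/+. The highest bin rests on single nuclei, since 2 control nuclei held 16 of its 23 counts and 1 Tbx5 G125R/+ nucleus 11 of its 14. Without nuclei of at least 4 IGFBP5 counts, an exclusion chosen after the data were seen, this bin held 7 control and 3 Tbx5 G125R/+ counts. Its levels were then 3.07 (1.23 to 6.32) and 3.87 (0.797 to 11.3) per 10000. Nuclei with no collagen-marker count were at 5.07 and 3.90 under the same exclusion. Leaving out nuclei by their IGFBP5 counts lowers the level by construction, so the bins cannot be ranked from these values. In nuclei with 1 endothelial-marker count IGFBP5 was at 11.3 and 5.39 per 10000 and CTGF at 3.51 and 8.99. With 2 or more, IGFBP5 had 14 control counts and 1 Tbx5 G125R/+ count, and CTGF 4 and 2.

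**Figure D3:**
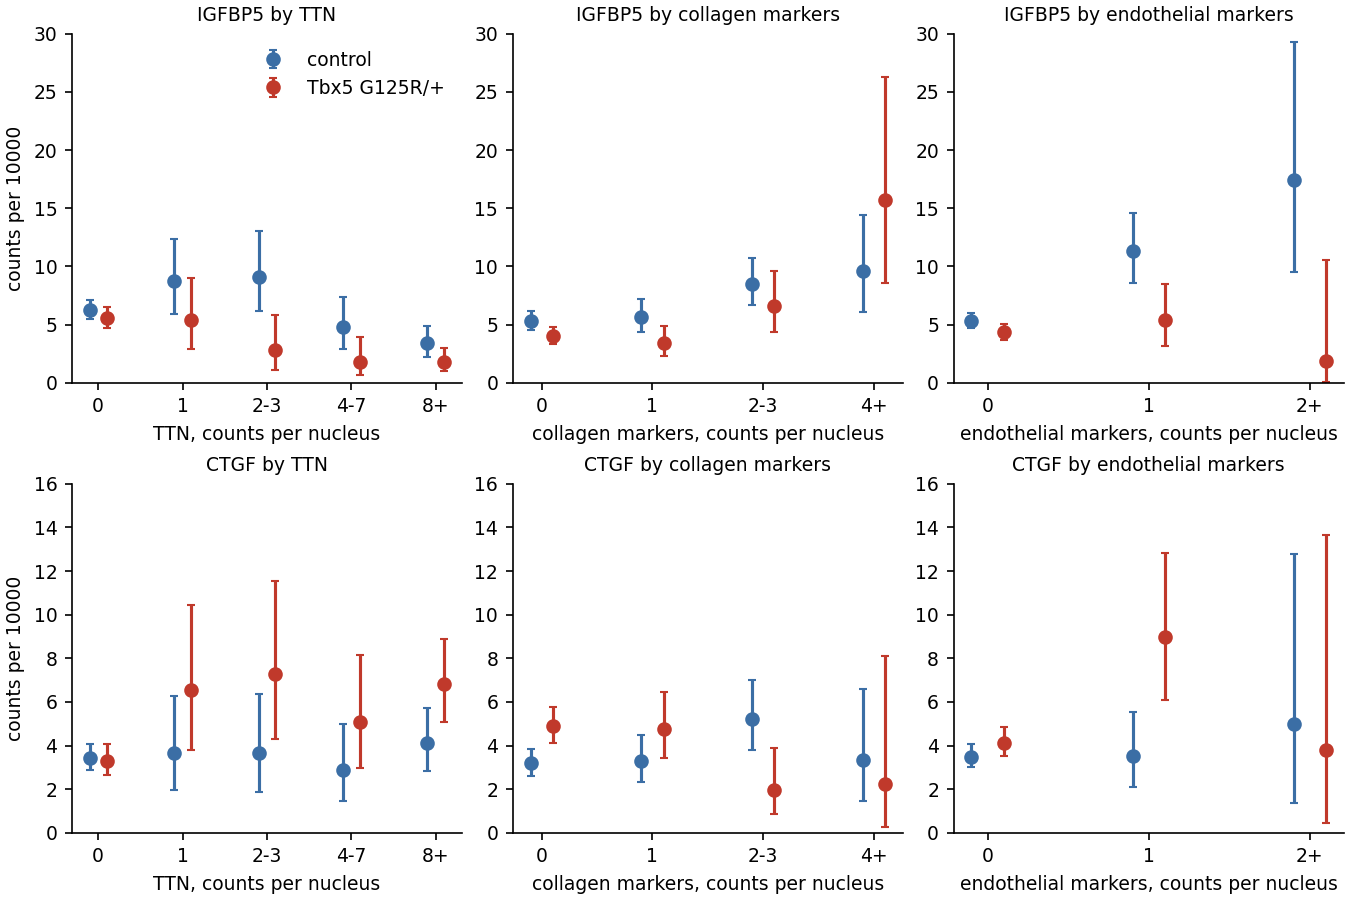
Counts per 10000 of IGFBP5 (top) and CTGF (bottom) in nuclei binned by their counts of TTN, of the collagen markers COL1A1, COL3A1 and FBLN1, or of the endothelial markers FLT1, PTPRB, TEK and ERG, with exact Poisson 95% intervals; blue is control and red Tbx5 G125R/+. CTGF is alike in nuclei with no TTN (3.43 and 3.30) and higher in Tbx5 G125R/+ in every bin with TTN, and it is lower in nuclei with 2 to 3 collagen-marker counts (5.20 and 1.97).

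Both genes were set beside all others. Of 1133 genes with at least 20 counts in both titin-rich and collagen-marker nuclei, 6 were higher by 1.5-fold or more in the former and lower by 1.5-fold or more in the latter, CTGF being 1 of them by the way it was chosen. Of 759 genes measured in titin-rich and endothelial-marker nuclei, 20 were lower by that much in both, as IGFBP5 was, and 7 were higher in both, as CTGF was. The median log2 ratio of all genes was close to zero in each group (-0.01 in titin-rich, 0.03 in collagen-marker and 0.00 in endothelial-marker nuclei).

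**Figure D4:**
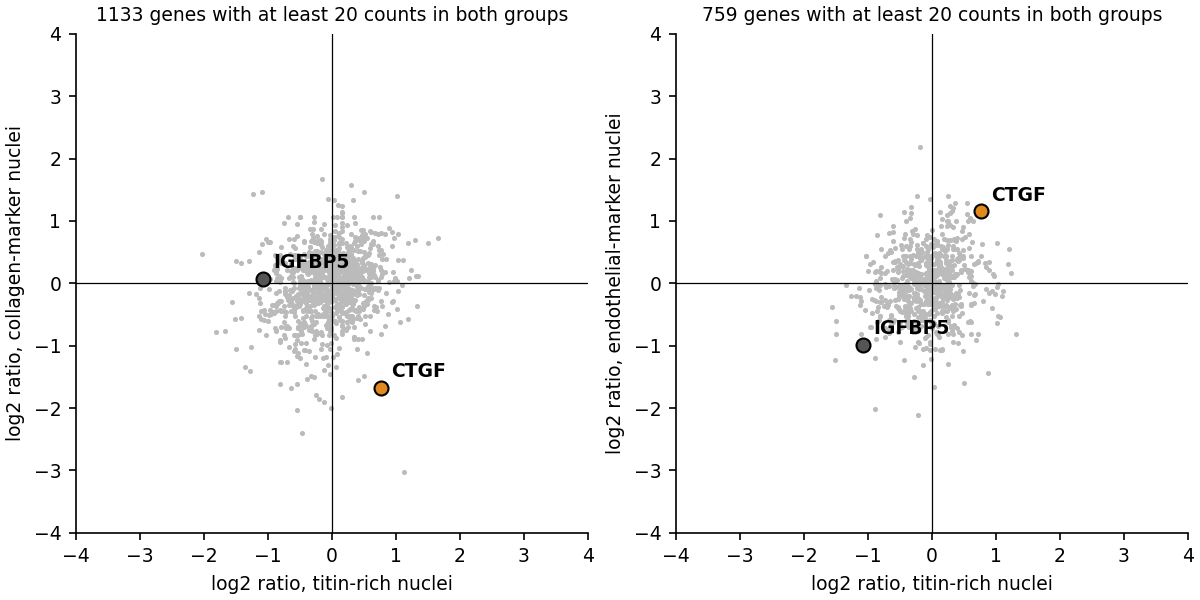
Log2 ratio of Tbx5 G125R/+ to control for each gene in titin-rich nuclei (x axis) against collagen-marker nuclei (left, 1133 genes) or endothelial-marker nuclei (right, 759 genes), with IGFBP5 and CTGF marked. CTGF lies to the lower right on the left (0.76 and -1.67), a corner with 6 genes past 1.5-fold on both axes, and IGFBP5 to the lower left on the right (-1.08 and -0.99).

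The genes whose levels followed those of IGFBP5 and CTGF most closely were found over the 8 levels of 4 groups in 2 libraries, among 1707 genes with at least 100 counts. Nearest to IGFBP5 were KIF5B, a kinesin motor gene (Pearson r 0.98), EFEMP2, which encodes an elastic-fibre protein (0.93), SMAD7, an inhibitor of TGF-beta signalling (0.93), ANP32A (0.93) and PTMA (0.93), both of which encode acidic nuclear proteins. KIF5B was at 3.45 per 10000 in control and 2.16 in Tbx5 G125R/+ titin-rich nuclei and at 5.41 and 5.67 in collagen-marker nuclei. Nearest to CTGF were PSMD1, a proteasome subunit (0.95), UBE2E3, a ubiquitin-conjugating enzyme (0.90), FEM1C, a ubiquitin ligase adaptor (0.89), SRSF10, a splicing factor (0.86), and ITPR2, a calcium release channel (0.85). FEM1C was at 1.12 and 1.80 per 10000 in titin-rich nuclei and at 1.80 and 0.472 in collagen-marker nuclei. IGFBP5 and CTGF themselves had an r of -0.38 over the same 8 levels, which share 2 libraries and so are not independent.

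Few other genes of the IGF pathway were measured. Over all nuclei the measured ligands, receptors and adaptors had log2 ratios close to zero. The measured binding proteins, proteases and inhibitors had ratios below zero. Of 7 listed ligands, receptors and adaptors 3 had at least 20 counts over all nuclei, with none past 1.5-fold and a median log2 ratio of 0.05, against -0.03 for all genes. Over all nuclei, 6.9% of genes were higher and 9.48% lower by 1.5-fold or more. IGF1R, the IGF receptor gene, had 107 control and 86 Tbx5 G125R/+ counts (0.09). IRS1, its adaptor, had 27 and 21 (0.05). In titin-rich nuclei IGF1R had 17 and 25 counts (0.71, -0.23 to 1.70). Of 7 other IGF binding proteins 2 were measured, IGFBP4 with 156 and 95 counts (-0.31, -0.69 to 0.07) and IGFBP7 with 130 and 69 (-0.50, -0.95 to -0.08). Neither passed 1.5-fold over all nuclei, nor did IGFBP5 (-0.46, -0.73 to -0.20). Of 6 proteases of these proteins and their inhibitors, 2 were measured and both were lower by 1.5-fold or more: PAPPA, a protease that cuts IGF binding proteins, with 24 and 9 counts (-0.96, -2.30 to 0.15), and STC1, an inhibitor of that protease, with 45 and 18 (-0.89, -1.79 to -0.10).

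The family and partners of CTGF were covered unevenly. CYR61, the CCN family member that shares its Hippo control, had 88 control and 60 Tbx5 G125R/+ counts (-0.14, -0.64 to 0.34) and was the 1 measured gene of 5. It had 19 and 26 counts in titin-rich nuclei (0.61, -0.29 to 1.55) and 58 and 26 in remaining nuclei (-0.79, -1.53 to -0.11). Of 13 partners and receptors 8 were measured, with 2 higher and 0 lower past 1.5-fold and a median of 0.01. Among all genes 6.9% were higher and 9.48% lower by that much. VEGFA, a vessel growth factor that CTGF can bind, had 832 and 902 counts (0.52, 0.39 to 0.66), and LRP1, an endocytic receptor of CTGF, had 396 and 289 (-0.05). The 2 past 1.5-fold were DCN, the matrix proteoglycan decorin, with 29 and 38 counts (0.79, 0.06 to 1.55) and the growth factor receptor FGFR2 with 11 and 13 (0.64, -0.63 to 1.95). Of 7 other matricellular genes SPARC alone was measured, with 45 and 16 counts (-1.06, -2.01 to -0.23).

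Pathways known to act on the CTGF gene were also read. Of 26 Hippo genes 18 were measured, 1 higher and 0 lower past 1.5-fold, with a median log2 ratio of 0.14. Among all genes 6.9% were higher and 9.48% lower by that much, which applies to each list here. The Hippo gene past 1.5-fold was VGLL3, with 18 and 23 counts (0.75, -0.19 to 1.74). TEAD1, the DNA-binding partner of YAP, had 346 and 283 counts (0.12), and TAOK1, a kinase upstream in the pathway, 250 and 178 (-0.08). Of 19 TGF-beta ligands, receptors and SMADs 13 were measured, 0 higher and 2 lower, with a median of -0.24. SMAD7 had 454 and 311 counts (-0.14) and the receptor gene TGFBR1 286 and 175 (-0.30, -0.58 to -0.03). The 2 past 1.5-fold were TGFBR2 (65 and 29 counts, -0.74) and SMAD2 (80 and 39, -0.62). SRF and its cofactor MKL2 had log2 ratios of 0.24 and 0.03. In titin-rich nuclei TEAD1 was at 10.0 and 10.9 per 10000 (0.12, -0.26 to 0.49), and SMAD7 at 7.46 and 5.39 (-0.46, -0.96 to 0.02).

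Of 13 immediate-early genes, which respond quickly to stimuli and to tissue handling, 8 were measured, with none past 1.5-fold and a median of -0.09. Among all genes 6.9% were higher and 9.48% lower by that much. JUN, a subunit of the AP-1 factor, had 918 and 517 counts (-0.42, -0.58 to -0.27) and was the listed gene past 1.5-fold in titin-rich nuclei among those with at least 60 counts there, with 93 and 44 counts (-0.91). KLF4, a zinc finger factor, had 253 and 215 (0.17). JUN was also lower in collagen-marker nuclei (193 and 66 counts, -0.47, -0.91 to -0.07) and remaining nuclei (519 and 338, -0.26, -0.46 to -0.06), and had 113 and 69 counts in endothelial-marker nuclei (-0.27, -0.73 to 0.17). The JUN ratio was below zero in each group, with an interval that spans zero in endothelial-marker nuclei. Its part, or that of tissue handling, in the CTGF values was not tested.

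**Figure D5:**
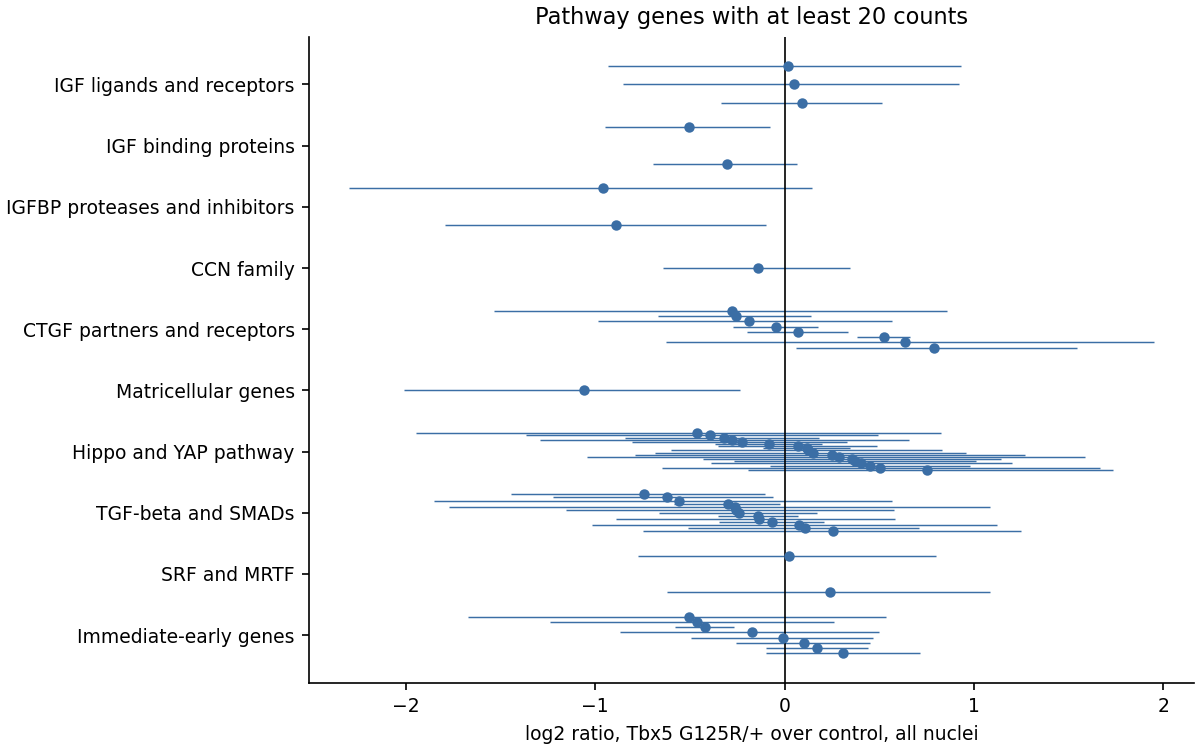
Log2 ratio of Tbx5 G125R/+ to control over all nuclei for each listed gene with at least 20 counts, by pathway list, with exact conditional 95% intervals for counting error. Most genes lie within 1 log2 unit of zero; both measured proteases and inhibitors (-0.96 and -0.89) and SPARC (-1.06) lie lowest.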

How the data were processed

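Right atrial nuclei of 1 control and 1 Tbx5 G125R/+ library were analysed, each from 3 pooled atria with 7000 nuclei loaded (10x Genomics). The authors deposited raw counts per nucleus and gene, not normalized and with zeros unlisted, after keeping nuclei with at least 1000 reads in R2. These counts do not show that minimum, since nuclei hold 45 to 1217 counts. The submitters' notes give the build mm10, yet every one of the 9330 identifiers is human, and 8177 symbols match a mouse RefSeq symbol or synonym. The aligner and the counter were not given in the sources used here. A deposited table of the authors' corrected p-values and fold changes within clusters was not used. Nucleus names are running numbers with a prefix for each library, so shared cell barcodes could not be counted. The libraries hold 560272 and 422811 counts. TBX5 had 13 control and 15 Tbx5 G125R/+ counts, and the variant cannot be read from counts.

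Counts were summed per group and library. Levels carry exact Poisson intervals, shares Clopper-Pearson intervals, and ratios, with 0.5 added to each sum, exact conditional intervals of a pair of Poisson counts. Intervals and the limit that 3 counts allow cover counting error only, at 95%. Nuclei of a library are not replicates, so no test was made. A nucleus meeting several marker rules (104 control and 56 Tbx5 G125R/+) went to the first of titin, collagen and endothelial, and no doublet caller was run. Genes needed 20 counts over both libraries in a group. Likeness is Pearson's r of log2(counts per 10000 + 0.1).

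The members, lists and markers were chosen with earlier results of these data known. The text gives values for both members in every nucleus group, but not in every split of a group by TTN count. It also gives the 2 list genes with most counts over all nuclei and the 5 genes most like each member. List genes past 1.5-fold in titin-rich or endothelial-marker nuclei with at least 60 counts there are given too. Genes of the IGFBP5-rich nuclei and the KIF5B and FEM1C levels were chosen after their values were seen. So were single list genes in 1 group and list genes past 1.5-fold over all nuclei. Python 3.11.15, numpy 2.4.6, scipy 1.17.1, pandas 2.3.3 and matplotlib 3.10.9 were used, and the ratios were tested on simulated data. Other marker minimums, rule orders, scalings, count minimums, depths and groupings were tried as alternatives. Gene positions come from GENCODE annotation of GRCm38.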

Additional observations from a re-analysis of the deposited data

Results flagged for a closer look

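CTGF differed between the libraries in opposite directions in different nucleus groups. Its log2 ratio of Tbx5 G125R/+ to control was 0.76 in titin-rich nuclei (70 and 46 counts) and 1.16 in endothelial-marker nuclei (30 and 18), but -1.67 in collagen-marker nuclei (6 and 43). The difference between the groups was not tested, since each genotype has 1 library. CTGF was chosen for this pattern. Cardiomyocyte markers were also lower in Tbx5 G125R/+ in collagen-marker nuclei (log2 ratio -0.40, -0.59 to -0.21) and in endothelial-marker nuclei (-0.68, -0.94 to -0.43), where CTGF went in opposite directions. Their part in the CTGF values was not tested.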

How the results depend on the processing

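Of 168 alternative values 139 stayed within the interval of the reported value or, for counts of genes, within 1.5-fold of it. The 139 include settings that cannot change a group by construction, so they are not that many separate checks. The titin-rich ratios kept their sign in all 15 alternatives, from -1.28 to -0.58 for IGFBP5 and from 0.72 to 0.96 for CTGF. Titin-rich nuclei are assigned first, so other minimums for collagen or endothelial markers repeat the reported values and check nothing. Leaving out nuclei of several rules and reversing the order keep the same titin-rich nuclei. The IGFBP5 interval spanned zero in 4 alternatives. These were nuclei of several rules left out or assigned in reverse order, TTN as a share of counts, and other markers. IGFBP5 in endothelial-marker nuclei stayed negative in all 16 (-2.69 to -0.33), with -2.69 at a minimum of 2 endothelial-marker counts (14 control counts, 1 Tbx5 G125R/+ count). Leaving out nuclei of several rules cannot change this group, and the -0.33 came from the cluster labels. Since those labels went against the markers, values with them do not check the result of any marker group. The CTGF ratio in collagen-marker nuclei ran from -1.81 to 0.24. It was -0.066 at a minimum of 1 collagen-marker count and -0.012 with the authors' cluster labels (85 and 52 counts), and it reversed to 0.24 with other markers (6 and 4). The CTGF ratio in endothelial-marker nuclei was 0.094 at a minimum of 2 marker counts (3 and 2), 0.055 with the cluster labels (52 and 35) and -0.28, reversed, with other markers (12 and 6). In remaining nuclei CTGF was at -0.35 without nuclei that hold MYH6 and at 1.14 with the cluster labels, under which this group is all other labels. Other markers, cluster labels and the exclusion of MYH6 were chosen after seeing the data, and the causes of these changes were not tested beyond the smaller counts given. Thinning lowers shares by its construction: IGFBP5 to 2.79% and 1.22% (titin-rich, control and Tbx5 G125R/+), 3.30% and 4.45% (collagen-marker), 7.31% and 3.88% (endothelial-marker) and 3.35% and 2.76% (remaining), and CTGF to 2.55% and 4.52% (titin-rich), 3.37% in control collagen-marker, 6.62% in Tbx5 G125R/+ endothelial-marker, and 2.16% and 2.49% in remaining nuclei. With at least 60 counts, fewer genes passed 1.5-fold in either direction, 15.3% in titin-rich, 12.4% in collagen-marker, 12.3% in endothelial-marker and 7.92% in remaining nuclei, against 25.8%, 24.8%, 25% and 18.4%. With at least 300 counts, 3 of the 5 genes nearest to IGFBP5 and 1 of the 5 nearest to CTGF were kept. No paired analysis was possible because each genotype has 1 library and the results come from no test.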
